A study of Mus musculus with 13 samples.

Results

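Transcription factor genes of urothelium and sinus endoderm, 8 of the 15019 genes tested, were followed through bladder, urogenital sinus and urethra of mouse embryos: Gata3, Foxa2, Foxa1, Klf5, Grhl3, Elf3, Pparg and Trp63. They were picked by gene symbol, with earlier results of these data known, and were found through the platform annotation, which gave 13 probe sets with 1 of these symbols alone. Of these, 11 passed the filter on dim probe sets. A probe set is a group of short oligonucleotides that together report 1 transcript on the Affymetrix MOE430 array. The brightest kept probe set of a gene, by its mean over 13 arrays, stood for that gene, and the other probe sets of Klf5 and Trp63 served as a check. All 8 genes were tested.

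The tissue was from FVB/N embryos of day 14 with the SMGA/EGFP transgene, in which the promoter of Actg2, a smooth muscle actin gene, drives a green fluorescent protein. Bladder (3 arrays, replicates 2, 6 and 8) and urethra (3 arrays, replicates 1, 2 and 6) were dissected as fluorescent tissue, and the urogenital sinus (4 arrays, replicates 1, 2, 6 and 7) as the dark tissue between them. Samples were not pooled, and replicates 1 and 2 were at Theiler stage 21 while replicates 6, 7 and 8 were at stage 22. The reference (3 arrays) was RNA of whole wild-type FVB/N mice at postnatal day 1, pooled from 4 males and 4 females, and serves as a common standard. Every sample was total RNA of a whole dissected region, which holds epithelium, mesenchyme, muscle and nerve together, so fewer cells of a type and less RNA per cell cannot be told apart. Whether the samples of the 3 regions were taken from the same or from separate embryos is not stated in the labels, and p-values therefore reflect the spread among these arrays only. Levels are log2 intensities. The floor lies at 5.65, and the filter level, which stands in for a detection limit, lies at 7.39.

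The epithelium of bladder, urogenital sinus and urethra derives from the endoderm of the cloaca. FOXA1 and FOXA2 are winged-helix factors that open chromatin in endoderm, GATA3 is a zinc-finger factor of urothelium and of the nephric duct, and KLF5, GRHL3 and ELF3 act in the growth, barrier formation and differentiation of urothelium and other epithelia. PPARG is a nuclear receptor that binds fatty acid ligands and drives urothelial differentiation as well as fat cell formation, while TRP63 (p63) maintains basal and progenitor cells of stratified epithelia.

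The bladder arrays were dimmer than those of the sinus, with a median intensity of 142 to 238 against 259 to 389 in the sinus, and urethra arrays lay at 221 to 378. Centring each array on its median therefore added 0.59 to every bladder minus sinus difference, 0.47 to every bladder minus urethra difference and 0.12 to every urethra minus sinus difference. The mean of 19 epithelial genes, among them Epcam and Cdh1, was 10.19 to 11.03 on the bladder arrays, 10.73 to 11.85 in the sinus and 11.36 to 12.60 in the urethra, so all 3 dissections held epithelium. The ratio of 3' to 5' actin signal, which rises as RNA or its copies get shorter, was highest on bladder replicate 8 (4.04 on the log2 scale) and urethra replicate 1 (3.42). The part of these array properties in the differences between regions was not tested, except through the alternatives named beside a result.

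Promoters are shown for Foxa2, which was near the floor in the bladder alone of the regions, for its relative Foxa1, which was high in all 3 regions, and for Pparg, whose mean was highest in the bladder. The differences of Foxa1 and Pparg between regions were not called. Each is the window of 250 bases before the first RefSeq transcription start in the mouse build GRCm38.p6, written 5' to 3' on the strand of the gene, with motif matches in capitals. The Foxa2 window is chr2:148046970-148047219 on the minus strand, the Foxa1 window is chr12:57546112-57546361 on the minus strand, and the Pparg window is chr6:115360894-115361143 on the plus strand.
Foxa2: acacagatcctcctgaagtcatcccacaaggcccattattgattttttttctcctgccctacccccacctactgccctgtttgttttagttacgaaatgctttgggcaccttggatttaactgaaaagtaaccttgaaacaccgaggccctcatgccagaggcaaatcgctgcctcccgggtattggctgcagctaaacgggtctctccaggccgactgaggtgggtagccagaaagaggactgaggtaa
Foxa1: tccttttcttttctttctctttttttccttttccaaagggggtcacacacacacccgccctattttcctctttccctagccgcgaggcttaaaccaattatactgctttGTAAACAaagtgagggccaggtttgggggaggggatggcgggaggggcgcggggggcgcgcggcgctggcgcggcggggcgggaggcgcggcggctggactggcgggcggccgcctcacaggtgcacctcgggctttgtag
Pparg: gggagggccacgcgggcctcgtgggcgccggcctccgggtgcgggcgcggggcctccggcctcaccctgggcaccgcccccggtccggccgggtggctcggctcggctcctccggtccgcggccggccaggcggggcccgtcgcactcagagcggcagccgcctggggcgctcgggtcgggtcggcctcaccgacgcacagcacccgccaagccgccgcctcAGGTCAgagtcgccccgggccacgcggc

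Motifs were searched on both strands by their letters: AGATAA for GATA factors, TGTTTAC for forkhead factors, AACCGGTT for grainyhead factors, GGGCGGGG for KLF factors, AGGAAG for ETS factors and AGGTCA for nuclear receptors. The Foxa1 window held 1 forkhead match, on the opposite strand and so printed as GTAAACA, 141 bases before the start. The Pparg window held 1 nuclear receptor match, AGGTCA, 28 bases before the start. The Foxa2 window held no match to any of the 6 motifs, and neither did the single windows of Gata3, Grhl3 and Elf3, which says only that these letters are not in these windows. Foxa2 and Pparg have 3 listed starts each, and the windows of their later starts are not printed. Of these, the Foxa2 window at the second start held an ETS match 114 bases before it and the one at the third start a GATA match 183 bases before it. The Pparg window at the second start held a KLF match 212 bases and a nuclear receptor match 9 bases before it, and the one at the third start held none of the 6. Across 32851 promoter windows of the same length, a forkhead match stood in 3.17%, a nuclear receptor match in 14% and a GATA match in 9.99%. An ETS match stood in 29.5% and a KLF match in 16.1%. GC content was 50.8% in the Foxa2 window, 62% in the Foxa1 window and 82.4% in the Pparg window, against a median of 52.4% over all windows.

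Foxa2 and Gata3 were the members called between the bladder and both of its neighbours. Both were low in the bladder and high in the urogenital sinus and the urethra, by at least 5.66-fold for Foxa2 and 5.43-fold for Gata3 between bladder and sinus. Together they made 2 of 8 members called lower in the bladder than in the sinus, against 1.73% of all genes called lower and 2.54% called in either direction. A call needs an adjusted p under 0.05, from limma with Benjamini-Hochberg adjustment over all 15019 genes.

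Foxa2, the endodermal forkhead factor, had intensities of 19.0, 92.4 and 46.8 on bladder replicates 2, 6 and 8, which put 2 of these arrays at the floor of 5.65 and the remaining one at 6.53 on the log2 scale. It reached 10.16, 10.57, 9.31 and 9.53 on sinus replicates 1, 2, 6 and 7, and 10.95, 10.44 and 10.27 on urethra replicates 1, 2 and 6. Every bladder array was thus under the filter level, every sinus and urethra array was over it, and the groups did not overlap. The bladder minus sinus difference was -3.95 (SE 0.41, limma adjusted p = 0.00387), the 9th smallest p of all genes, and at least 5.66-fold. Against the urethra it was -4.61 (SE 0.43, limma adjusted p = 0.00174), at least 8.97-fold. Between urethra and sinus Foxa2 differed by 0.66 (95% interval -0.24 to 1.57, limma adjusted p = 0.615), and the groups overlapped. The order of levels was therefore urethra, sinus, bladder, with urethra and sinus not separated beyond their spread. Setting the floor at the filter level reduced the differences to -2.50 and -3.16, and both remained called. The replicate numbers come from the sample titles, and arrays of different regions share some of them. With this number as a fixed replicate block the bladder minus sinus difference of Foxa2 was -3.79 and not called (limma adjusted p = 0.0589), and the difference from the urethra was -4.33 and called (0.0443).

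Gata3, the zinc-finger factor, stood at 10.24, 10.22 and 10.38 on the bladder arrays, at 12.79, 13.29, 12.41 and 12.41 on the sinus arrays, and at 13.88, 12.73 and 12.47 on the urethra arrays. All bladder arrays were well over the filter level, and each was under every sinus and urethra array. The bladder minus sinus difference was -2.44 (SE 0.35, limma adjusted p = 0.0111) and the bladder minus urethra difference was -2.75 (SE 0.38, limma adjusted p = 0.00704), a 6.71-fold lower level. Urethra and sinus differed by 0.30 (95% interval -0.48 to 1.09), with overlapping arrays. Centring on array medians changed the bladder minus sinus difference of Gata3 to -1.85 (limma adjusted p = 0.0739), and the call was also lost without bladder replicate 2 (0.0642) and without bladder replicate 6 (0.0638). With the same replicate block neither Gata3 difference was called, at -2.39 from the sinus (limma adjusted p = 0.0814) and -2.59 from the urethra (0.0590). Sample titles are also written in different styles, and all urethra titles share 1 style. No bladder or sinus title has this style, and of the reference arrays only replicate 3 has it. A block on title style therefore takes the effect of the urethra style from reference replicate 3 alone, the highest reference array for Gata3 (11.76). It cannot otherwise tell title style from region in the urethra. With the title style as a block the bladder minus urethra difference was -1.50 (limma adjusted p = 0.447), and that from the sinus was -2.45 and called (0.00609).

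Other tissues also use GATA3, and their markers varied with region too. The mean of 8 nephric and reproductive duct markers was 7.83 to 9.10 in the bladder, 9.49 to 10.28 in the sinus and 8.29 to 9.19 in the urethra, with 1 of 8 lower in the bladder than in the sinus (Gfra1, a GDNF co-receptor, -2.23, limma adjusted p = 0.00584). The mean of 9 neuronal markers was 8.02 to 9.25 in the bladder, 8.04 to 12.45 in the sinus and 7.74 to 9.79 in the urethra. Sinus replicate 1 and urethra replicate 1 had the lowest neuronal means of their regions, 8.04 and 7.74, and Gata3 stood at 12.79 and 13.88 there. The highest were on sinus replicate 2 (12.45) and urethra replicate 6 (9.79), where Gata3 stood at 13.29 and 12.47. Of the same 9 markers, 1 was lower in the bladder than in the sinus, the RNA-binding protein Elavl3 (-3.70, limma adjusted p = 0.0211). Its bladder mean of 6.78 was under the filter level. Of all genes, 1.73% were called lower in the bladder than in the sinus. Whether duct or nerve cells contributed to the Gata3 levels was not tested. For Foxa2, which is also a factor of the intestine, 7 intestinal markers had a mean of 6.45 to 6.85 in the bladder, 6.50 to 7.64 in the sinus and 6.60 to 6.77 in the urethra, against 12.76 to 13.21 in the newborn reference.

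**Figure D1:**
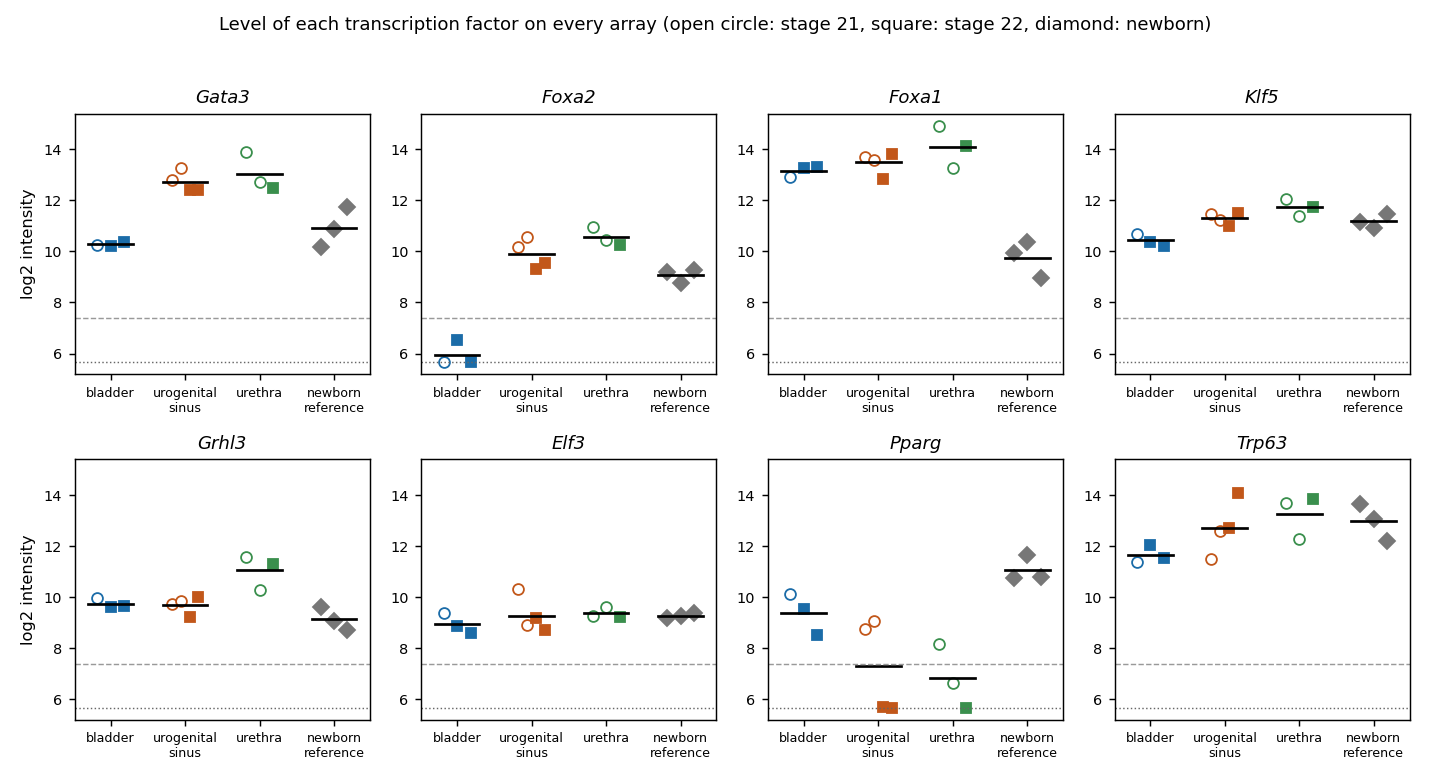
Log2 intensity of each of the 8 genes on every array, by group, with the group mean as a black bar, the filter level as a dashed line and the floor as a dotted line. Foxa2 lies under the filter level on all 3 bladder arrays, Gata3 is lowest of the regions in the bladder, Foxa1 is high in all 3 regions, and Pparg falls to the floor on some sinus and urethra arrays.

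Foxa1, the close relative of Foxa2, was high in all 3 regions. It stood at 12.92, 13.25 and 13.29 on the bladder arrays, at 13.69, 13.59, 12.85 and 13.82 on the sinus arrays, and at 14.90, 13.27 and 14.14 on the urethra arrays. Sinus replicate 6 was the lowest of the 10 arrays and urethra replicate 1 the highest, and neighbouring groups overlapped. The bladder minus sinus difference was -0.33 (95% interval -1.16 to 0.49, limma adjusted p = 0.649), and it turned to 0.25 with arrays centred on their medians. Against the urethra the bladder was lower by -0.95 (95% interval -1.83 to -0.06), which did not pass after adjustment (limma adjusted p = 0.182). The intervals of Foxa1 and Foxa2 for bladder minus sinus did not meet, the upper end for Foxa2 being -3.04. The difference between the genes was not itself tested.

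Klf5, Grhl3 and Elf3 differed less between regions. Klf5, a zinc-finger factor of proliferating epithelium, stood at 10.69, 10.37 and 10.23 on the bladder arrays, at 11.45, 11.21, 11.01 and 11.50 on the sinus arrays, and at 12.04, 11.38 and 11.74 on the urethra arrays. Each bladder array was under each sinus and urethra array, while sinus and urethra overlapped. The bladder was lower than the urethra by -1.29 (SE 0.26, limma adjusted p = 0.0275), and lower than the sinus by -0.87 (SE 0.24), which did not pass (limma adjusted p = 0.104). The Klf5 call against the urethra held in 14 of 27 alternatives, and centring on array medians gave -0.82 (limma adjusted p = 0.381).

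The other kept probe set of Klf5, 1451739_at, gave a different picture. It read 9.42, 9.84 and 7.02 on the bladder arrays, 11.61, 9.62, 10.11 and 8.98 on the sinus arrays, and 7.03, 9.43 and 9.02 on the urethra arrays. The lowest values were bladder replicate 8 and urethra replicate 1, the same arrays on which the 3' to 5' actin ratio was highest. The bladder minus urethra difference on this probe set was 0.26 (SE 0.93, limma adjusted p = 0.886), the opposite sign to the first. The remaining Klf5 probe set was under the filter level on all 13 arrays.

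**Figure D2:**
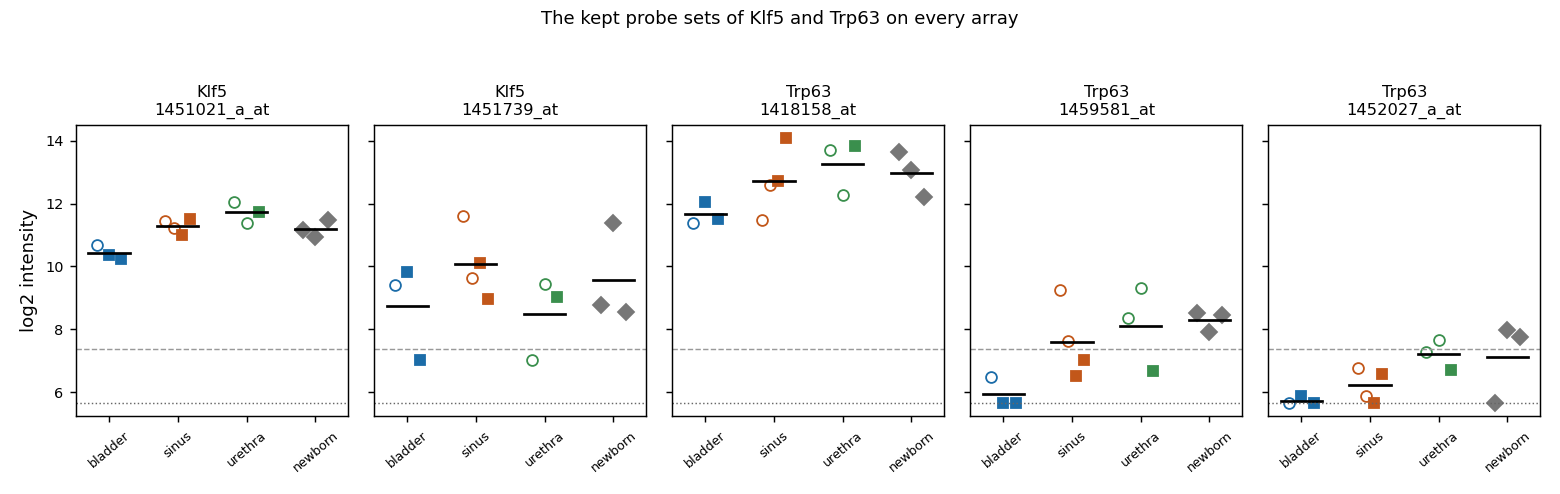
Log2 intensity of the 5 kept probe sets of Klf5 and Trp63 on every array, with group means as black bars, the filter level dashed and the floor dotted; open circles are stage 21, squares stage 22 and diamonds the newborn reference. The first probe set of Klf5 separates the bladder, while 1451739_at does not order the regions the same way.

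Grhl3, a grainyhead factor of epithelial barriers, stood at 9.96, 9.62 and 9.64 in the bladder, at 9.74, 9.87, 9.21 and 10.02 in the sinus, and at 11.56, 10.28 and 11.30 in the urethra. Bladder and sinus overlapped almost wholly, and every urethra array was over every array of both. The urethra minus sinus difference was 1.34 (SE 0.36), which ranked 241st of all genes by p and was not called (limma adjusted p = 0.240). The bladder minus urethra difference was -1.31 (SE 0.38, limma adjusted p = 0.0841). Bladder minus sinus was 0.03 (95% interval -0.76 to 0.82). Grhl3 was the one member whose urethra and sinus arrays did not overlap, against 8.22% of all genes, and no member was called in that comparison, against 0.0133% of all genes (2 genes; limma gave 1559 genes an unadjusted p under 0.05).

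Elf3, an epithelial ETS factor, was the most even member. It stood at 9.39, 8.86 and 8.58 in the bladder, at 10.32, 8.91, 9.19 and 8.70 in the sinus, and at 9.27, 9.62 and 9.22 in the urethra. Sinus replicate 1 was the highest array and all groups overlapped. The widest 95% interval for Elf3 among the 3 region comparisons, bladder minus urethra, ran from -1.43 to 0.58, so a difference of the size seen for Gata3 lay outside it.

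Pparg, the nuclear receptor, had the highest levels of the 3 regions in the bladder, with a wide spread elsewhere. It stood at 10.13, 9.54 and 8.51 in the bladder, at 8.75, 9.07, 5.72 and 5.65 in the sinus, and at 8.18, 6.62 and 5.65 in the urethra. All bladder arrays, 2 of 4 sinus arrays and 1 of 3 urethra arrays were over the filter level. Every bladder array was over every urethra array, and bladder and sinus overlapped. The bladder minus sinus difference was 2.10 (SE 0.97, limma adjusted p = 0.305) and the bladder minus urethra difference was 2.58 (SE 1.04, limma adjusted p = 0.173). Neither was called. The difference from the urethra was called in 2 of 27 alternatives, with Theiler stage as a covariate (3.31, limma adjusted p = 0.0219) and with array weights (3.13, 0.0430). Over all 27 it ran from 1.74 to 3.58, with adjusted p of up to 0.70.

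Trp63, the factor of basal cells, ran the other way. It stood at 11.38, 12.06 and 11.52 in the bladder, at 11.48, 12.58, 12.71 and 14.07 in the sinus, and at 13.70, 12.27 and 13.84 in the urethra. Every bladder array was under every urethra array, and the sinus arrays overlapped both groups. The bladder minus urethra difference was -1.62 (SE 0.61, limma adjusted p = 0.152) and the bladder minus sinus difference was -1.06 (SE 0.57, limma adjusted p = 0.371). Of its other kept probe sets, 1459581_at was over the filter level on 7 of 13 arrays and 1452027_a_at on 3 of 13. Both were under it on all 3 bladder arrays, so they give no measured bladder level to set against the urethra.

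Counted together, the bladder against the urethra had 3 of 8 members called, all lower in the bladder (Foxa2, Gata3 and Klf5), against 4.33% of all genes called and 2.62% called lower. In that comparison 6 of 8 members did not overlap, against 34.5% of all genes. In the bladder against the sinus 3 of 8 did not overlap, against 17.9%. The median member difference was -1.30 for bladder minus urethra, where the median of all genes was -0.25, and -0.60 for bladder minus sinus, where it was -0.19. The test for any difference among the 3 regions called Foxa2 (limma F test, adjusted p = 0.00268) and Gata3 (adjusted p = 0.0102), against 3.29% of all genes, and left Klf5 just outside (adjusted p = 0.0525). These comparisons share arrays, since each region enters 2 of them.

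**Figure D3:**
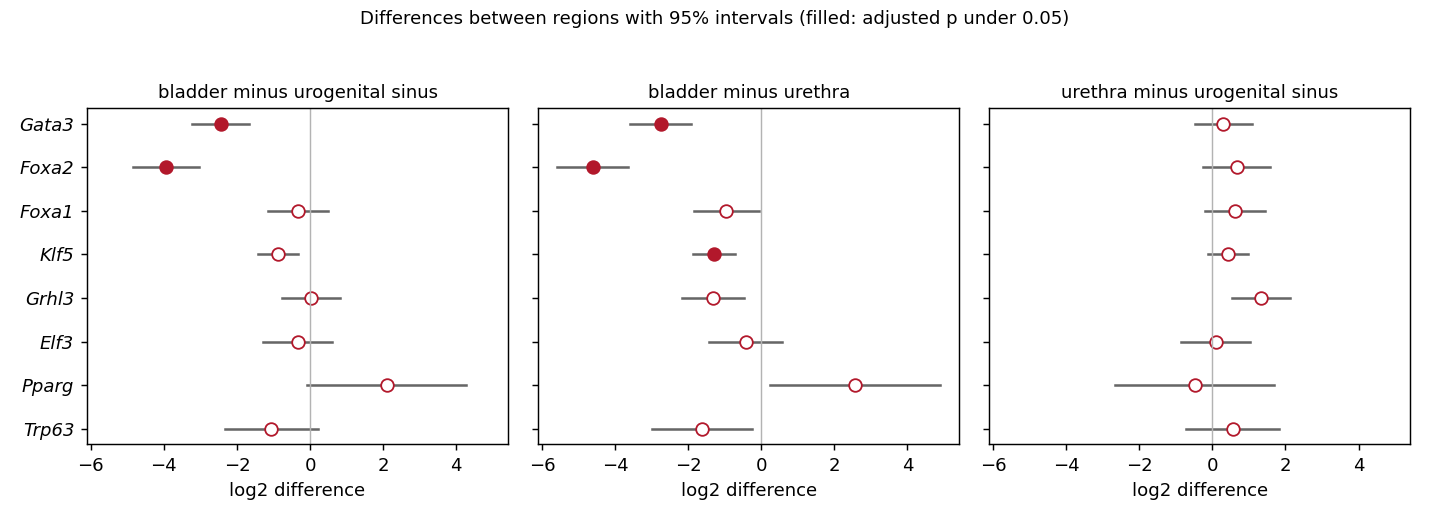
Log2 difference of each gene between regions (points) with its 95% interval (lines) from the limma fit over 10 arrays; filled points passed an adjusted p under 0.05. Foxa2 and Gata3 lie far to the left in both comparisons with the bladder, and no gene is filled for urethra minus urogenital sinus.

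Since the epithelial mean tended to be lowest in the bladder, with overlap between bladder and sinus, each member was also set against the mean of the 19 epithelial genes on the same array. Of these 19 genes, 0 were called between bladder and sinus, against 2.54% of all genes, with a median difference of -0.73. Between bladder and urethra 2 of 19 were lower in the bladder, against 2.62% of all genes. They were Shh (-1.63), the hedgehog ligand of sinus endoderm, and the tight junction gene Cldn3 (-3.33). Cldn3 was dim in the bladder, at 6.45, under the filter level. Relative to the mean of the 19 epithelial genes, Foxa2 stood at -4.66 ± 0.67 (SD, n = 3) in the bladder, -1.44 ± 0.26 (SD, n = 4) in the sinus and -1.40 ± 0.42 (SD, n = 3) in the urethra. Gata3 stood at -0.32 ± 0.49, 1.39 ± 0.32 and 1.07 ± 0.44 in the same order. For both genes every bladder array stayed under every sinus and urethra array after this step. Klf5 no longer separated the regions, at -0.17 ± 0.19, -0.04 ± 0.60 and -0.24 ± 0.29, with overlapping arrays. Foxa1 was 2.55 ± 0.61, 2.16 ± 0.62 and 2.14 ± 0.21, again overlapping. Pparg was -1.21 ± 0.42 in the bladder, -4.03 ± 1.30 in the sinus and -5.14 ± 0.98 in the urethra, and its bladder arrays then lay over all sinus and urethra arrays. The subtracted mean averaged 10.60 in the bladder, 11.33 in the sinus and 11.96 in the urethra, so the step itself lowers sinus and urethra more. Pparg did not follow that mean (r = -0.04 over the region arrays), and 1 sinus and 1 urethra array lay at the floor. Its separation from the sinus appeared only through this step. These relative levels are given without a test.

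**Figure D4:**
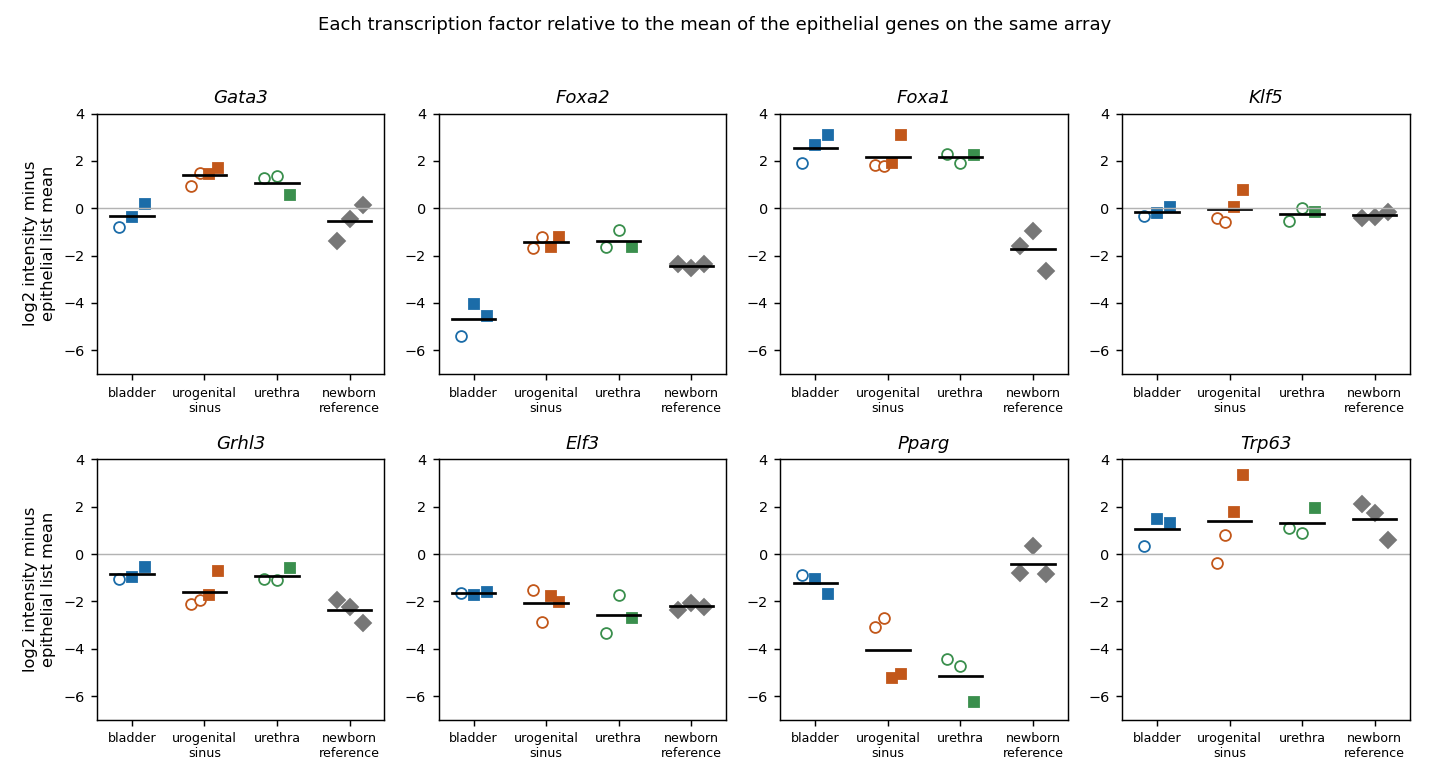
Log2 intensity of each gene minus the mean log2 intensity of 19 epithelial genes on the same array, with group means as black bars; open circles are stage 21, squares stage 22 and diamonds the newborn reference. Foxa2 and Gata3 stay lowest of the regions in the bladder, Pparg stays highest there, and Klf5 overlaps in all regions.

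Across the 10 region arrays the members formed loose groups, described here by Pearson's r and Spearman's rho without a test, since arrays of a region share their tissue, their scaling and their stage mix. Gata3 and Foxa2 were the closest pair (r = 0.97, rho = 0.92). Klf5 lay near both (r = 0.89 with Gata3 and 0.89 with Foxa2), and Foxa1 went with Grhl3 (r = 0.85). Pparg and Trp63 ran in opposite directions (r = -0.70, rho = -0.81). All these values use the probe set that stood for each gene. The other kept probe sets of Klf5 and Trp63, which read differently, were not correlated with the members. With the epithelial mean, r was highest for Klf5 (0.85) and Gata3 (0.80), and lowest for Pparg (-0.04), Trp63 (0.39) and Elf3 (0.53). Elf3 followed the median intensity of the array instead (r = 0.77).

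Among all genes tested, those most like Gata3 over the 10 region arrays were Jakmip3 (r = 0.98), Col23a1, a transmembrane collagen (r = 0.98), and Foxa2 itself. For Foxa2 they were the heparan sulfate sulfotransferase Hs3st4 (r = 0.98), Dapl1 (r = 0.98) and Gata3. Foxa2 and Gata3 were thus each among the nearest 3 genes of the other. Krt5, a basal keratin, and Pkp1, a desmosomal plakophilin, were among the nearest 3 for Klf5 (r = 0.96 for both). Nr1h4, a bile acid receptor, was shared by the lists of Foxa1 (r = 0.92) and Grhl3 (r = 0.93). Its means were under the filter level in every region, at 5.65 in the bladder, 5.95 in the sinus and 6.99 in the urethra, so these r rest on dim signal. In the bladder the means of Jakmip3 (5.84), Foxa2 (5.94), Hs3st4 (6.05), Pkp1 (6.11) and Dapl1 (6.60) were under the filter level as well. Their r thus rest in part on dim bladder signal. Pparg was closest to Pcbd2 and Cd302 (r = 0.96 for both), Trp63 to Htr1b and Ttc9 (r = 0.93 for both), and Elf3 to Snhg7, Tyk2 and Pabpn1 (r = 0.95 for each).

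**Figure D5:**
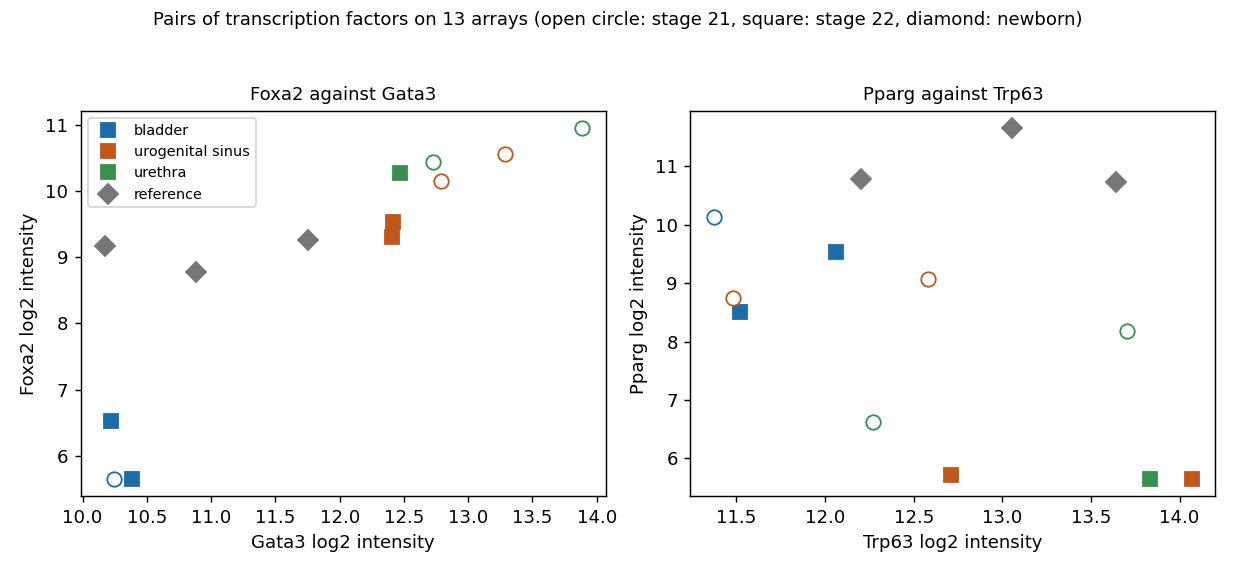
Left, Foxa2 against Gata3 and right, Pparg against Trp63, each point 1 of 13 arrays in log2 intensity. Each gene is shown by the probe set that stood for it. Open circles are stage 21, squares stage 22 and diamonds the newborn reference, coloured by group. On the left the 3 bladder arrays sit apart at low Foxa2 and low Gata3. On the right the stage 22 sinus and urethra arrays have Pparg at or near the floor, with Trp63 from 12.71 to 14.07.

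Against the newborn standard, whose mean entered the fit as 1 sample, Foxa1 was the member that stood out in every region. It read 9.94, 10.37 and 8.95 on the 3 reference arrays and was higher by 3.40 in the bladder (SE 0.56, limma adjusted p = 0.00263, 10.6-fold), by 3.73 in the sinus (SE 0.54, limma adjusted p = 0.00126, 13.3-fold) and by 4.35 in the urethra (SE 0.56, limma adjusted p = 0.000644, 20.4-fold). No region array overlapped the reference. Fitting only the urethra and reference arrays left the urethra value uncalled (limma adjusted p = 0.0736). These 3 comparisons share the reference.

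Foxa2 read 9.18, 8.78 and 9.26 in the reference, so the bladder was lower than the whole newborn mouse by -3.13 (SE 0.61, limma adjusted p = 0.00643, at least 3.21-fold), while the sinus was at 0.82 (limma adjusted p = 0.445) and the urethra at 1.48 (limma adjusted p = 0.155) over it. Gata3 read 10.17, 10.88 and 11.76 in the reference. It was higher in the sinus by 1.79 (SE 0.52, limma adjusted p = 0.0469), a call that held in 13 of 29 alternatives. It was lost when any 1 of the sinus or bladder arrays was left out (limma adjusted p of 0.0550 to 0.0778), without urethra replicate 2 (0.0606) and without reference replicate 1 (0.0993). In the urethra Gata3 was higher by 2.09 (SE 0.53, limma adjusted p = 0.0280), and without reference replicate 1 the value was 1.71 (0.0594). In the bladder Gata3 was at -0.65 (limma adjusted p = 0.438), and this sign turned with arrays centred on their medians (0.19). Grhl3 read 9.61, 9.07 and 8.72 in the reference and was higher in the urethra by 1.92 (SE 0.54, limma adjusted p = 0.0425), a call held in 16 of 29 alternatives.

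Pparg read 10.74, 11.65 and 10.78 in the reference, over every region array. Its differences were -1.66 for the bladder, -3.76 for the sinus and -4.24 for the urethra, with limma adjusted p of 0.478, 0.122 and 0.0943, so none was called. Klf5 read 11.15, 10.93 and 11.48 in the reference, Elf3 read 9.20, 9.27 and 9.38, and Trp63 read 13.64, 13.06 and 12.20. None of these genes was called against the reference in any region. In all, 2 of 8 members were called in the bladder, 2 of 8 in the sinus and 3 of 8 in the urethra, against 17%, 13.8% and 13.2% of all genes. In sinus and urethra all called members were higher, against 4.62% and 4.36% of all genes called higher. Members that did not overlap the reference numbered 6, 4 and 5 of 8, against 51%, 32% and 40.9% of all genes.

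Relatives of the members were described from a list of 25 genes of the same families, of which 24 were tested. The counts of this and the following lists stand beside 2.54% of all genes called between bladder and sinus. Between bladder and urethra 4.33% of all genes were called. Between bladder and sinus 1 was higher in the bladder and 1 lower, with a median of -0.22 against -0.19 over all genes. Klf4, a factor of differentiating epithelium, was higher in the bladder by 2.33 (limma adjusted p = 0.00572), and Grhl2, a grainyhead factor of epithelial junctions, was lower by -1.45 (0.0314). Against the urethra 3 were higher and 2 lower, with a median of -0.05 against -0.25 over all genes. Gata6 (3.48, limma adjusted p = 0.0196), Klf6 (1.87, 0.0119) and Klf4 (1.65, 0.0214) were higher in the bladder, and Grhl2 (-2.15, 0.00715) and Elf5 (-1.79, 0.0390) lower. The mean of Gata6 was 13.27 in the bladder, 11.47 in the sinus and 9.79 in the urethra, the reverse order to that of Gata3. Foxa3, the remaining FOXA gene, had means of 7.27, 7.89 and 7.10 in the 3 regions and 11.24 in the reference, and none of its region differences was called.

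Of 13 tested factors from a list of other epithelial transcription factors, 2 were lower in the bladder than in the sinus and 0 higher. Sox2, a factor of progenitor cells, was lower by -4.24 (limma adjusted p = 0.00450) and Tfap2a, an AP-2 factor of surface epithelia, by -2.78 (0.0102). Both were also lower in the bladder than in the urethra, by -5.00 and -4.34, together with Hes1, a Notch target (-1.88, limma adjusted p = 0.0147). The medians of the list were -0.84 against the sinus and -1.18 against the urethra, where those of all genes were -0.19 and -0.25. No gene of either list was called between urethra and sinus.

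Genes known as targets or companions of single members were taken from further lists. Of all genes, 4.33% were called between bladder and urethra and 2.54% between bladder and sinus, with medians of -0.25 and -0.19. For Pparg, 4 of 8 tested PPAR target genes were higher in the bladder than in the urethra: the fatty acid binding protein Fabp4 (3.25, limma adjusted p = 0.0145), the fatty acid transporter Cd36 (2.36, 0.0144), the lipase Lpl (1.89, 0.0155) and the kinase Pdk4 (2.76, 0.0296). Against the sinus 1 of 8 was higher, Pdk4 (2.60, limma adjusted p = 0.0392). The means of Pdk4 in sinus (7.04) and urethra (6.88) were under the filter level. The list medians were 0.96 against the urethra and 0.80 against the sinus, and 6 and 5 of 8 values lay over 0. Angptl4 (-1.14) and Fabp5 (-0.51) were lower in the bladder than in the urethra, and neither was called. Fabp4, Cd36 and Lpl are also genes of fat and vessel cells, whose share was not measured. For Trp63, 6 of 13 basal epithelial genes were lower in the bladder than in the urethra, led by Krt5 (-5.06, limma adjusted p = 0.00174), Krt15 (-4.43, 0.00337), Krt17 (-2.96, 0.0169) and Lamb3 (-2.69, 0.0181), and 1 of 13 was lower than in the sinus, Krt5 (-3.39, 0.00908). The bladder means of Krt17 (5.91) and Lamb3 (6.57) were under the filter level, so the sizes of their differences rest on dim signal. The basal list medians were -1.57 and -1.02.

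In mature urothelium GATA3, KLF5 and PPARG act on differentiation. Of 10 tested genes from a list of urothelial differentiation, 1 was higher in the bladder than in the sinus, the sorting nexin Snx31 (1.90, limma adjusted p = 0.0394). Against the urethra 1 was higher, the uroplakin Upk3b (4.32, limma adjusted p = 0.0250), whose urethra mean of 6.85 was under the filter level. Whether its signal came from urothelium was not tested. The other listed uroplakins, Upk1a (0.07), Upk1b (1.25), Upk2 (0.64) and Upk3a (1.80), were not called against the urethra, nor against the sinus. The list medians were 0.47 and 1.05 against sinus and urethra, where those of all genes were -0.19 and -0.25. Of the 10 values, 8 and 9 lay over 0. Signals from endoderm and mesenchyme were lower in the bladder than in the urethra for 3 of 12 genes: the retinoic acid synthesis enzyme Aldh1a1 (-4.53, limma adjusted p = 0.0134), the retinoic acid receptor Rarb (-1.79, 0.0220) and the hedgehog inhibitor Hhip (-2.00, 0.0376). None of these 12 was called between bladder and sinus, and 1 of 12 values lay over 0 there.

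Of 8 smooth muscle markers, 5 were higher in the bladder than in the sinus, against 2.54% of all genes called. Between bladder and urethra 0 of 8 were called, against 4.33%. A smooth muscle promoter guided the dissection, so these counts are not independent of it. The mean of 8 mesenchymal markers was high in all regions (13.99 to 14.05 in the bladder, 13.86 to 14.55 in the sinus and 14.33 to 14.44 in the urethra). Of these, 1 was called lower in the bladder than in the urethra, Twist1 (-2.77, limma adjusted p = 0.00704). The mean of 8 epidermal markers was low in the regions (7.12 to 7.92 over the 10 region arrays) and reached 12.61 to 12.97 in the reference. Single markers lay over the filter level. Among them were Krt10 (means of 10.27, 10.48 and 10.30 in bladder, sinus and urethra) and Lor (9.64, 11.70 and 11.55). Lor was called lower in the bladder than in the sinus (-2.06, limma adjusted p = 0.0176) and the urethra (-1.90, 0.0233), and 1 of the 8 was called higher in the bladder than in the sinus.

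Stage gave no call: 0 of 15019 genes passed between Theiler stages 22 and 21 with region as a covariate (limma; 3830 genes had an unadjusted p under 0.05), so 0% of all genes and 0 of 8 members were called. Pparg had the smallest p of the members, at -2.20 (SE 0.47, limma adjusted p = 0.0770). It was lower at stage 22 in each region, by -1.11 in the bladder, -3.23 in the sinus and -1.75 in the urethra, and no stage 22 array of a region reached a stage 21 array of the same region. The sinus and urethra arrays at or beside the floor were all of stage 22, apart from urethra replicate 2 at 6.62. Removing the floor gave -2.65 (limma adjusted p = 0.0473), and a floor at the filter level gave -1.08 (0.101).

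Trp63 was higher at stage 22 in each region, by 0.42, 1.36 and 0.85 in bladder, sinus and urethra, with an overall difference of 0.94 (SE 0.40, limma adjusted p = 0.184). Its other probe sets gave the opposite sign, -1.57 (limma adjusted p = 0.0801) on 1459581_at and -0.27 (0.586) on 1452027_a_at. The remaining members differed by between -0.54 (Elf3) and -0.01 (Foxa1). A test of whether the stage difference depended on region called no gene (limma, adjusted p of 1 for all 8 members). Stage 21 and stage 22 embryos were of the same embryonic day.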

How the data were processed

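The authors deposited linear signal intensity for 45101 probe sets on 13 arrays. GCOS is named without a version, per the submitters' processing notes, and how the scans became the table is not given in the sources used here. This deposited intensity had a 2% trimmed mean of 1500 on each array and was not rescaled. Values were floored at the 20th percentile (50.23) and log2 transformed. Control probe sets (64) were left out. Symbols came from the platform annotation. Probe sets over the 40th percentile (167.76) on at least 3 arrays were kept, and the one with the highest mean stood for each of 15019 genes. Probe set levels of different genes were not compared.

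The 10 region arrays shared 1 fit (limma 3.58.1 in R 4.3.3, with lmFit and trended eBayes, two-sided, Benjamini-Hochberg). The reference mean entered as 1 sample, assumed to vary like the region samples. A fold against a group under the filter level on all its arrays was computed against that level and is written "at least". Stage was tested with region as a covariate. The fits were tested on simulated data.

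The members and the 14 gene lists were chosen with earlier results of these data known. Beside the members, the text names genes from the 3 most like each member over the region arrays. It also names called genes of the lists in the comparisons it describes, up to 4 by smallest adjusted p. Not every called gene of a list is named. Alternatives covered scaling, floor, filter, probe set, limma settings, blocks (statmod 1.5.0), stage, the arrays fitted and each array left out. Leaving out reference arrays, and leaving out both arrays numbered 1, were added after the data were seen. No protein sequence was used here, and no promoter window was found for Klf5 and Trp63. Promoter windows are RefSeq, build GRCm38.p6.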

Additional observations from a re-analysis of the deposited data

Results flagged for a closer look

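The mean of the 13 tested genes in the list of other epithelial transcription factors had 1 sinus array apart from the rest. It was 10.09, 10.08 and 10.05 on sinus replicates 1, 2 and 7 and 9.74 on replicate 6. The gap to the nearest array was 0.864 of the whole range, over Dixon's 95% critical value for 4 arrays. This was 1 of 23 measures checked in the sinus, the only group of over 3 arrays, and chance alone marks about 1 in 20. None of the 8 members passed this mark in the sinus. The largest member ratio was that of Foxa1 (0.764), whose lowest sinus array was also replicate 6, at 12.85.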

How the results depend on the processing

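Across 25 to 29 alternatives per comparison of groups (23 for stage), Foxa2 stayed called lower in the bladder than in the urethra in 27 of 27 and than in the sinus in 26 of 27, and Foxa1 stayed called over the reference in bladder and sinus in 29 of 29. Gata3 was called lower in the bladder than in the sinus in 23 of 27 and than in the urethra in 25 of 27 (under the title style block it was -1.50, adjusted p = 0.447). The cause was not tested for the changes that follow, and dim signal limits Foxa2 in the bladder and Pparg in sinus and urethra to values at or near the floor.

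The number of members called moved as follows. Centring on array medians gave 1 for bladder against sinus, 1 for the F test among regions, 1 for sinus against reference and 1 for urethra against reference. Array weights gave 4 for bladder against sinus, 1 for urethra against sinus, 5 for bladder against urethra, 5 for the F test and 1 for stage. For sinus against reference the count was 1 also with no filter, with the filter on 6 arrays, with the largest-variance probe set, with no intensity trend, with the random replicate block and with only the arrays compared. For urethra against reference it was 0 with only the arrays compared and 5 with the reference as 3 samples. For stage it was 1, Pparg, with no floor, with the filter on 6 arrays and with robust eBayes. The title style block, whose urethra style effect rests on reference replicate 3 alone, gave 1 for bladder against urethra. Leaving out each array in turn gave 1 to 2 for bladder against sinus, 2 to 4 for bladder against urethra, 1 to 2 for sinus against reference, 2 to 3 for urethra against reference and 1 to 3 for the F test (without bladder replicate 2 or without bladder replicate 6, 1 for both bladder against sinus and the F test).

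The counts of all genes called ranged from 46 to 2668 for bladder against sinus (382 as reported), 0 to 664 for urethra against sinus (2), 55 to 1873 for bladder against urethra (651), 49 to 3204 for the F test (494), 1626 to 5791, 994 to 5270 and 595 to 4196 for bladder, sinus and urethra against the reference (2557, 2076 and 1987), and 0 to 1421 for stage (0).

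The title numbers are shared by some arrays of different regions. The correlation of deviations from region means was -0.17 to 0.36 over the 7 same-numbered pairs, over 0.1 in 5 of 7. Over pairs with different numbers it ran from -0.51 to 0.41. Same-numbered arrays also share their stage, so these values cannot decide whether the samples were paired. The labels state no pairing, and the main fit therefore used none. As a random replicate block the numbers had a consensus correlation of 0.27. As a fixed replicate block the numbers gave 0 members called for bladder against sinus (limma, Gata3 adjusted p = 0.0814, Foxa2 0.0589), 1 for bladder against urethra and 0 for the F test. That block could not be estimated against the reference or for stage.

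Signs turned only for small or uncalled values, apart from Klf5 between bladder and urethra, which was 0.26 on probe set 1451739_at and with the largest-variance probe set. In all 68 values of 23 of 56 member results turned, and 0 of them were called. For bladder minus sinus, Foxa1 turned with centring (0.25) and array weights (0.15), and Elf3 with quantile normalization (0.093), centring (0.25) and without both arrays numbered 1 (0.0098). For urethra minus sinus, Gata3 turned with the title style block (-0.95) and without both arrays numbered 1 (-0.10), Klf5 with the mean of its probe sets (-0.58), the largest-variance probe set and 1451739_at (-1.58 for both) and the title style block (-0.0017), Elf3 with the fixed replicate block (-0.10) and stage as covariate (-0.0016), Pparg with array weights (0.37) and the title style block (0.20), and Trp63 without both arrays numbered 1 (-0.065). For bladder minus urethra, Elf3 turned with centring (0.043).

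Against the reference, centring turned Gata3 (0.19), Klf5 (0.083) and Elf3 (0.50) in the bladder, where Elf3 also turned with quantile normalization (0.38) and stage as covariate (0.023). In the sinus Klf5 turned with array weights (-0.11), and Elf3 with array weights (-0.13), the random replicate block (-0.026) and the title style block (-0.068). In the urethra Klf5 turned with the mean of its probe sets (-0.27), the largest-variance probe set and 1451739_at (-1.07 for both), Elf3 with the title style block (-0.0098), and Trp63 with the largest-variance probe set and 1459581_at (-0.19 for both) and stage as covariate (-0.012). For stage, centring turned Klf5 (0.13), Foxa1 (0.26) and Grhl3 (0.20), quantile normalization turned Grhl3 (0.16), and Trp63 turned with the mean of its probe sets (-0.30), the largest-variance probe set and 1459581_at (-1.57 for both) and 1452027_a_at (-0.27).

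Leaving out each array in turn, signs turned within these ranges: for bladder minus sinus, Grhl3 -0.14 to 0.13 and Elf3 -0.56 to 0.01; for urethra minus sinus, Gata3 -0.12 to 0.58, Elf3 -0.10 to 0.44 and Pparg -1.16 to 0.11. Against the reference they were Klf5 -0.023 to 0.25, Elf3 -0.35 to 0.19 and Trp63 -0.71 to 0.15 in the sinus, and Elf3 -0.034 to 0.16 and Trp63 -0.080 to 0.80 in the urethra. For stage they were Foxa1 -0.21 to 0.20 and Grhl3 -0.25 to 0.087.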
